A study of Mus musculus with 598 samples.

Results

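Tbx6, Msgn1, Dll1, Dll3, Lfng, Hes7 and Ripply2 are 7 genes of Notch signalling and somite segmentation, and their reads were followed cell by cell in Mesp1-GFP+ cells of the gastrulating mouse embryo. They were taken by symbol, as 7 of the 40912 genes in the count table, and each was found by its Ensembl identifier. Of the 598 cells, 28.8% were E6.75 WT, 14.2% (85 cells) were E6.75 KO and the other 57.02% were E7.25 WT, all sorted on the same reporter. The labels say KO and WT only and name no targeted gene or allele. They name no strain for the embryos and no embryo, litter or pool, so each group stands as 1 sample of many cells. No test between groups, p-value or replicate check is therefore given. Every interval below is a 95% interval for counting error only (exact Poisson for reads, exact Clopper-Pearson for shares of cells). Duplicate reads of a molecule are not marked in these libraries. The Poisson intervals treat every read as separate, so they may be too narrow even for counting error.

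In the presomitic mesoderm, the tissue that flanks the posterior midline and is cut into somites, a Notch signal is switched on and off in a repeating cycle. Dll1 is the ligand that activates Notch on a neighbouring cell, and Dll3 is a divergent ligand that acts inside its own cell and does not activate the receptor. Lfng adds sugars to Notch and so changes its answer to ligand, and Hes7 is the bHLH repressor at the centre of the oscillator. Tbx6 and Msgn1 are a T-box and a bHLH transcription factor of early paraxial mesoderm. Ripply2 is a co-repressor with a WRPW motif that binds Tle proteins and limits Tbx6 at the forming somite boundary.

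Positions are those of mouse assembly GRCm38, the same as mm10, in the GENCODE annotation. Dll1 (ENSMUSG00000014773) lies on chromosome 17, 15367354 to 15376872, minus strand. Dll3 (ENSMUSG00000003436) lies on chromosome 7, 28293553 to 28302238, minus strand. Lfng (ENSMUSG00000029570) lies on chromosome 5, 140607320 to 140615545, plus strand. Tbx6 (ENSMUSG00000030699) lies on chromosome 7, 126781483 to 126785560, plus strand, and Msgn1 (ENSMUSG00000047002) on chromosome 12, 11208360 to 11208972, minus strand. Hes7 (ENSMUSG00000023781) lies on chromosome 11, 69120404 to 69124055, plus strand, and Ripply2 (ENSMUSG00000047897) on chromosome 9, 87015537 to 87019917, plus strand. Dll1 overlaps the lincRNA A930024N18Rik on the opposite strand over 1873 bases, and Hes7 overlaps 9130213A22Rik on the opposite strand over 2186 bases. Over all cells the overlapping genes had 0.631% as many reads as Dll1 and 11.3% as many as Hes7. The strand setting of the counting is not given in the sources used here, so reads in the shared bases cannot be told apart.

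All 7 genes had a promoter in the RefSeq table for build GRCm38.p6, which gives 250 bases before and 50 after each start site; Dll1 had 2 entries. The letters TGGGAA, the core bound by RBPJ, the DNA-binding partner of Notch, were searched on both strands and found in 3 of 7 genes, against 25.6% of all 32851 promoters of the same length. The 3 are Lfng, with 2 matches, and Hes7 and Msgn1, with 1 each. These 3 are printed here because 2 of them belong to the Notch oscillator. Each line gives the 200 bases of the window farthest from the start site, 5′ to 3′ on the gene's strand, with TGGGAA or its reverse complement in capitals. The positions are chr5:140607091-140607290 (plus strand) for Lfng, chr11:69120203-69120402 (plus strand) for Hes7 and chr12:11208999-11209198 (minus strand) for Msgn1.
Lfng: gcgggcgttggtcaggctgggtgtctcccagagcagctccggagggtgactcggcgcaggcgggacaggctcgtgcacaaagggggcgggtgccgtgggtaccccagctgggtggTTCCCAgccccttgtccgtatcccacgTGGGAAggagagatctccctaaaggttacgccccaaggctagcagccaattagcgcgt
Hes7: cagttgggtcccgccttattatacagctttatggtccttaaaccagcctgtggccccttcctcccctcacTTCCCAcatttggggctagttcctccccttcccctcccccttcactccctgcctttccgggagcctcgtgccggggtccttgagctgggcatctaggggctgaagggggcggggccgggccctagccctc
Msgn1: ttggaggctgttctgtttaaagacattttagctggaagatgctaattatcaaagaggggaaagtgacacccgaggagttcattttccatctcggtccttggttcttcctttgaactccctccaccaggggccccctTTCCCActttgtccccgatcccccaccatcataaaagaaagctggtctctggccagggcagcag
In Lfng the match on the plus strand shares its first letters with the end of an E box, CACGTG. The T-box letters AGGTGT were found in 0 of 7 genes, against 13.7% of all promoters. The Hes letters CACNAG were found in 5 of 7 against 42.5%, the E box CANNTG, a palindrome that can overlap AGGTGT, in 6 of 7 against 72.3%, and the TCF/LEF letters CTTTGA in 1 of 7 against 16%. These matches describe letters in the window and not bound sites.

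Reads per cell ranged from 101895 to 14159574. The cells fall into 2 library sets, defined here from 8 genes, that coincide with the running numbers in the titles. The labels do not say what the sets stand for. Set 1 holds the 85 cells of the knockout, WT_001 to WT_083 at E6.75 (83 cells) and WT_001 to WT_173 at E7.25 (28.9% of the 598). Set 2 holds the other wild type cells, 28.1% of all cells at E7.25 and 89 at E6.75, and is deeper, with a median of 1799029 and 2264485 reads against 689539 and 807746. Comparisons were made within a set. Cells of set 1 also divide by whether they had Y-linked reads, meaning more than 3 CPM over 3 Y-linked genes. This held for 57.6% of knockout cells, 63.9% of wild type cells at E6.75 and 54.9% at E7.25. It held for 0 cells of set 2, and 0 cells, read as up to 3, leaves room for 3.37% at E6.75 and 1.79% at E7.25, so that the sets differ in this too. As a check of the labels, Mesp1 stood at 7.40 CPM (counts scaled to 1000000 reads on genes, 6.91 to 7.92) in knockout, 406 CPM (402 to 410) and 448 CPM (444 to 451) in sets 1 and 2 at E6.75, and 531 CPM in either set at E7.25. All 8 nascent mesoderm markers were at 1 CPM or more in every group. Of 9 adult bone marrow markers, which were included because the labels' protocol speaks of bone marrow, 6 to 8 were under 1 CPM. Levels below are CPM of summed reads. For log2 ratios 1 CPM was added to each level, so that the ratio of a low gene is smaller than its fold, and no doublet caller was run.

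**Figure D1:**
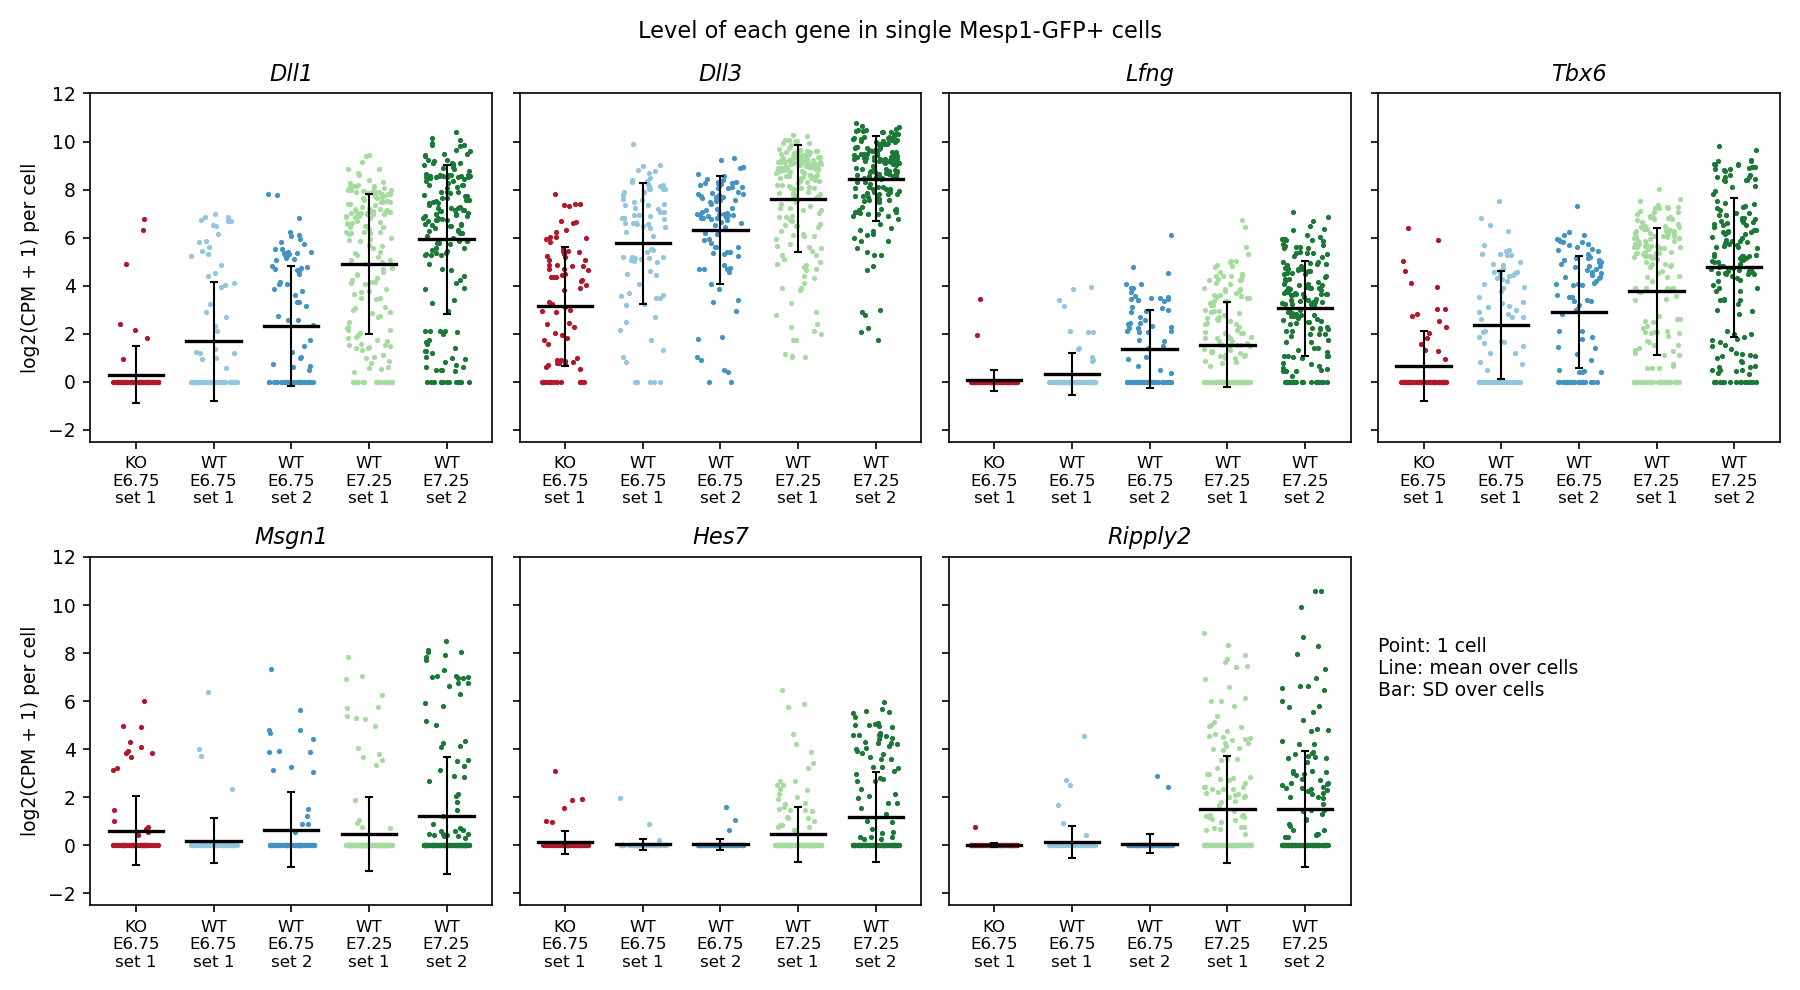
Level of each of the 7 genes in every cell, as log2(CPM + 1), for the 5 combinations of group and library set; points are cells, lines are means and bars are the SD over cells. Dll3 is read in every E7.25 cell, while Msgn1, Hes7 and Ripply2 lie at 0 in most cells of every group. At E7.25 these genes reach high levels in a few cells.

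The ligand Dll3 was the most widely read of the 7 genes in every group and set. It stood at 149.2 CPM (146.8 to 151.7) in wild type cells of set 1 at E6.75 and 170.4 CPM (168.3 to 172.4) in set 2. Single cells of set 1 ran from 0 to 953 CPM around a median of 93.6. At E7.25 its level was 377 CPM (374 to 380) in set 1 and 571 CPM (568 to 573) in set 2, and the lowest cells still had 1.02 and 2.34 CPM. Dll3 was therefore read in 100% of the E7.25 cells of both sets (97.9 to 100% in set 1). At E6.75 its cells overlapped with those of E7.25 over most of their range.

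Dll1 separated the stages further. In wild type cells at E6.75 it stood at 17.3 CPM (16.5 to 18.2) in set 1 and 16.7 CPM (16.1 to 17.3) in set 2, with median cells at 0 and 1.02 CPM. At E7.25 it stood at 127.5 CPM (125.9 to 129.1) and 222.8 CPM (221.3 to 224.3), with median cells at 58.1 and 115.1 CPM and highest cells at 695 and 1365 CPM. The share of cells with a Dll1 read, after each cell was thinned to 100000 reads, went from 25.3% (16.4 to 36.04%) to 71.1% (63.7 to 77.7%) in set 1. In set 2 it went from 41.6% (31.2 to 52.5%) to 77.98% (70.9 to 83.99%). Both the share of cells and the level in cells with a read were thus higher at E7.25: the median among cells with a read was 24.6 CPM at E6.75 and 136.3 CPM at E7.25 in set 2.

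Lfng, the glycosyltransferase, was far lower. It stood at 0.750 CPM (0.586 to 0.946) and 4.95 CPM (4.62 to 5.31) at E6.75 and at 6.53 CPM (6.17 to 6.91) and 18.02 CPM (17.6 to 18.5) at E7.25, in sets 1 and 2. In thinned cells of set 2 it was read in 20.2% (12.4 to 30.1%) at E6.75 and in 53.6% (45.7 to 61.3%) at E7.25. The level of Lfng at E6.75 differed between the library sets by more than its counting error, as did those of the other genes except Dll1 and Hes7, so values from different sets are not set against each other as stages. Single cells weighed on some of these levels. WT_040 held 77.1% of the Ripply2 reads of set 1, and WT_130 held 48.7% of the Msgn1 reads of set 2.

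Tbx6 was the more widely read of the mesoderm factors. Its level was 17.4 CPM (16.6 to 18.3) and 19.8 CPM (19.1 to 20.5) at E6.75, with median cells at 3.25 and 9.50 CPM and highest cells at 183.7 and 156.9 CPM. At E7.25 it stood at 35.6 CPM (34.8 to 36.5) in set 1 and 116.3 CPM (115.2 to 117.4) in set 2. The median cells were closer together, at 26.9 and 33.8 CPM, and the highest cells were at 262.8 and 899 CPM. The gap between the sets at E7.25 thus lies in the upper range of cells: 10.7% of the cells held 50% of the CPM summed over cells in set 2.

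Msgn1 was read in few cells at any stage. In wild type cells at E6.75 it had reads in 4 of 83 cells of set 1 and 17 of 89 cells of set 2, at 0.623 CPM (0.474 to 0.804) and 5.52 CPM (5.17 to 5.90). At E7.25 it had reads in 11.6% and 30.4% of the cells, at 3.38 CPM (3.12 to 3.66) and 21.9 CPM (21.4 to 22.4), and the highest cells reached 229.8 and 366.5 CPM. The median cell was at 0 in every group.

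The repressors were nearly unread at E6.75. Hes7 had 3 reads over 83 wild type cells of set 1 and 7 reads over 89 cells of set 2. At E7.25 it stood at 1.71 CPM (1.53 to 1.91) with reads in 34 cells (19.7%) of set 1 and at 5.73 CPM (5.49 to 5.98) with reads in 60 cells (35.7%) of set 2. Ripply2 had 35 reads in 6 cells and 21 reads in 2 cells at E6.75. At E7.25 it stood at 29.2 CPM (28.4 to 30.01) with reads in 43.4% of cells and at 34.4 CPM (33.8 to 35.01) with reads in 41.7%. These reads were held by few cells: the 5 cells with most Ripply2 reads had 80.01% of them in set 1 and 77.3% in set 2, and single cells reached 463 and 1555 CPM.

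Per kilobase of exon, Dll3 was the highest of the 7 genes in all 5 combinations of group and set, from 11.9 CPM per kb in knockout to 200.2 in set 2 at E7.25. The order behind it differed between the sets at E7.25. In set 2 it ran Tbx6 (64.5 CPM per kb), Dll1 (52.8), Ripply2 (46.8), Msgn1 (35.7), Lfng (7.19) and Hes7 (3.17). In set 1 it ran Ripply2 (39.8 CPM per kb), Dll1 (30.2), Tbx6 (19.7), Msgn1 (5.52), Lfng (2.61) and Hes7 (0.944). With 1 sample per group there is no spread between samples by which neighbours in either order could be told apart.

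**Figure D2:**
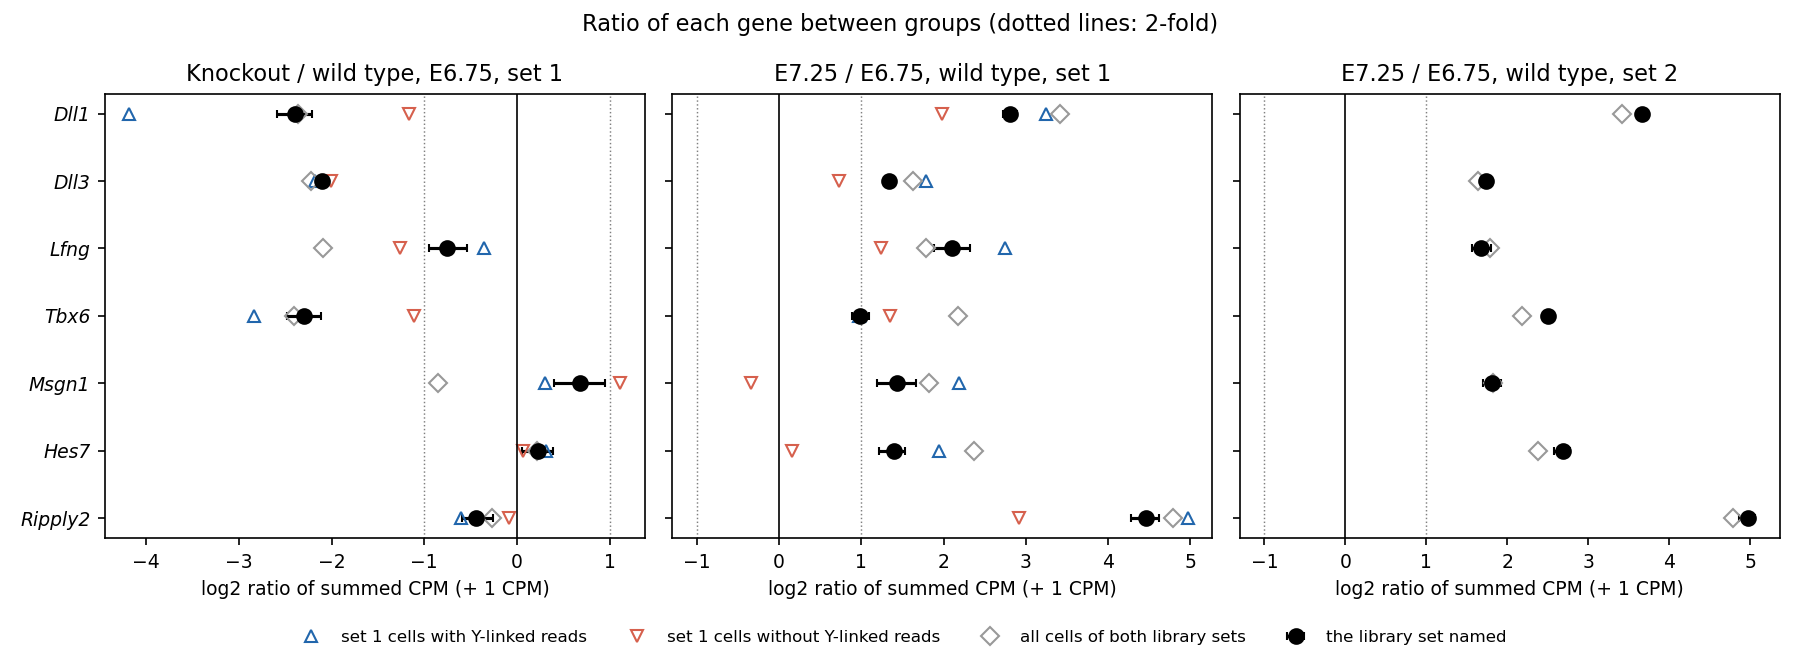
Log2 ratio of summed CPM (1 CPM added) of each gene in the 3 comparisons, with counting intervals on the filled points; open marks give set 1 cells with or without Y-linked reads and all cells of both sets. In knockout Dll1, Dll3 and Tbx6 lie left of the 2-fold line, and at E7.25 all filled points lie to the right of 0.

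In knockout cells the ligands Dll1 and Dll3 and the T-box factor Tbx6 were lower than in wild type cells of the same stage and library set. Dll1 stood at 2.48 CPM (2.20 to 2.78) against 17.3 in wild type, 6.99-fold lower (6.16 to 7.96) and -2.40 as a log2 ratio. Tbx6 stood at 2.76 CPM (2.46 to 3.08) against 17.4, 6.32-fold lower (5.60 to 7.16) and -2.30 as a log2 ratio. Dll3 stood at 33.97 CPM (32.9 to 35.1) against 149.2, 4.39-fold lower (4.24 to 4.55) and -2.10 as a log2 ratio. The sizes for Dll1 and Tbx6 differed between cells with and without Y-linked reads. With Y-linked reads Dll1 stood at 0.0134 CPM in knockout against 17.4 in wild type (log2 ratio -4.18). Tbx6 stood there at 2.19 CPM against 21.8 (-2.84). Without Y-linked reads both were lower by less, Dll1 at 7.14 CPM against 17.2 and Tbx6 at 3.84 CPM against 9.47. Of the 7 genes, 4 had a mean of at least 1 CPM over both groups, and 3 of these 4 were at least 2-fold lower by the log2 ratio with 1 CPM added, where 7.02% of the 13300 genes that passed were. By that ratio none of the 4 was at least 2-fold higher, where 4.31% of genes were. The 3 called genes were above 1 CPM in both groups, while Msgn1 passed through its knockout level alone. The median log2 ratio was -2.20 over the 4 genes that passed and -0.76 over all 7 genes, against -0.03 for all genes that passed.

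The share of cells with a read was lower for these genes too. In thinned cells, the knockout share was 51.8% for Dll3 (40.7 to 62.7%), against a wild type share of 85.5% (76.1 to 92.3%). For Tbx6 the shares were 11.8% (5.79 to 20.6%) and 42.2% (31.4 to 53.5%), and for Dll1 7.06% (2.63 to 14.7%) and 25.3% (16.4 to 36.04%). Groups overlapped for all 3: the highest knockout cells reached 223.6 CPM of Dll3, 108.5 of Dll1 and 84.6 of Tbx6, each above the median wild type cell. Knockout Dll1 rested on 7 of 85 cells, and the cell KO_043 alone held 64.5% of its reads. Without that cell the log2 ratio of Dll1 was -3.28. The knockout cells were the deeper group, with a median of 940161 reads against 689539.

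Lfng, Hes7 and Ripply2 were below 1 CPM in both groups. Lfng had 4 reads in 2 knockout cells against 71 reads in 12 wild type cells, and Ripply2 had 1 read in 1 knockout cell against 35 reads in 6 wild type cells. As ratios these are 21.3-fold lower (7.98 to 80.5) for Lfng and 42.1-fold lower (7.07 to 1709) for Ripply2, with the wild type cell WT_040 holding 77.1% of the wild type Ripply2 reads. Hes7 had 24 reads in 6 knockout cells against 3 reads in 3 wild type cells, 6.65-fold higher (2.02 to 34.5). The knockout cell KO_082 held 75% of these 24 reads.

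Msgn1 went the other way from Tbx6 within set 1. It had reads in 17 of 85 knockout cells and 4 of 83 wild type cells, at 1.61 CPM (1.38 to 1.86) against 0.623, 2.58-fold higher (1.91 to 3.52) and 0.68 as a log2 ratio. In thinned cells the shares were 11.8% (5.79 to 20.6%) and 3.61% (0.752 to 10.2%), whose intervals overlap. With the wild type cells of both sets as the reference the log2 ratio was -0.85, since 17 of the 89 wild type cells of set 2 had Msgn1 reads, and set 2 holds no knockout cell. The direction of Msgn1 in knockout therefore depends on which wild type cells it is set against. Of the 17 knockout cells with Msgn1 reads, 3 had Tbx6 reads, which is 17.6% (3.80 to 43.4%) against 21.2% of all knockout cells. In thinned cells this was 0 of 10 (0 to 30.8%) against 11.8%.

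Marker lists moved with the knockout comparison. Epiblast markers were higher in knockout (summed level of the median cell 1445 CPM, range 158.7 to 5302, against 854 CPM, range 301.3 to 2593), with 2 of 8 genes at least 2-fold higher. One of them, Sox2, was under 1 CPM in wild type and passed through its knockout level alone, so it could only be higher. Haemato-endothelial markers were lower (11.9 CPM, 0 to 845, against 88.6 CPM, 0 to 2639), with Cdh5 at 0 in both groups and 4 of 4 passing genes at least 2-fold lower. Of these, Tal1 and Lmo2 were under 1 CPM in knockout and passed through their wild type level alone, so they could only be lower. Cardiac markers were lower too (2.56 CPM, 0 to 174.7, against 38.3 CPM, 0 to 570), with 2 of 4 passing genes at least 2-fold lower. Extraembryonic mesoderm markers (158.2 CPM, 0 to 737, against 275.3 CPM, 1.91 to 1536) had 4 of 7 passing genes at least 2-fold lower, and nascent mesoderm markers (2883 CPM, 151.6 to 11622, against 2696 CPM, 751 to 6480) 3 of 8, Mesp1 among them. Their part in the ratios of the 7 genes was not tested.

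At E7.25 all 7 genes were higher than at E6.75 in both library sets. The wild type cells of set 1 at E6.75 are the same in this and the knockout comparison, so both comparisons share these reference cells. In set 2 every gene was at least 2-fold higher by the ratio with 1 CPM added: the log2 ratios were 4.97 for Ripply2, 3.66 for Dll1, 2.69 for Hes7, 2.50 for Tbx6, 1.81 for Msgn1, 1.74 for Dll3 and 1.68 for Lfng. This is 7 of 7 genes that passed the minimum of 1 CPM, where 5.66% of 13689 genes were, and 0 were lower, where 2.48% were. Hes7 and Ripply2 were under 1 CPM at E6.75 and passed through their E7.25 level alone, so they could only be higher; the other 5 were above 1 CPM at both stages. In set 1, 5 of the 6 genes that passed were at least 2-fold higher, where 7.07% of 13431 genes were, with Dll1 at 2.81, Ripply2 at 4.46, Lfng at 2.11, Msgn1 at 1.43 and Dll3 at 1.33. Msgn1, Lfng and Ripply2 passed through their E7.25 level alone here, and of the 3 genes above 1 CPM at both stages 2 were at least 2-fold higher. The third, Tbx6, lay just under 2-fold at 0.99 (2.04-fold without the added CPM), and Hes7, which did not pass, was at 1.39. None was at least 2-fold lower, where 4.49% of genes were. Median log2 ratios of all 7 genes were 2.50 in set 2 and 1.43 in set 1, against 0.04 and 0.02 for all genes that passed. Over the 6 genes that passed in set 1 the median was 1.77.

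Marker lists moved between the stages as well. Cardiac markers had 4 of 5 passing genes at least 2-fold higher at E7.25 in both sets, and the summed level of the median cell was 163.9 CPM (0 to 1752) against 39.9 CPM (0 to 485) in set 2. Extraembryonic mesoderm markers had 4 of 7 higher in set 1 and 3 of 7 in set 2, where the median cell stood at 219.7 CPM (0.597 to 5670) against 338.5 CPM (0 to 1766). Markers of definitive endoderm and axial mesoderm had 3 of 5 and 4 of 7 higher, and the median cell stood at 7.69 CPM (0 to 5420) against 0.312 CPM (0 to 1445) in set 2. Of the genes of these lists called higher, Smarcd3 (both sets), Sox17 (set 1) and Ahnak, Noto and Foxj1 (set 2) were under 1 CPM at E6.75. They passed through their E7.25 level alone and could only be higher. Of the epiblast markers 2 were at least 2-fold lower in each set, and the median cell stood at 774 CPM (166.9 to 5046) against 1463 CPM (352.8 to 4214) in set 2. Their part in the stage ratios was not tested.

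Single cells held much of some of these totals. Ripply2 in set 1 had 63.3% of its E7.25 reads in the cell WT_166, at 242.2 CPM, and its log2 ratio without that cell was 3.20. Msgn1 in set 2 had 48.7% of its E6.75 reads in the cell WT_130, and its log2 ratio without that cell was 2.56. Tbx6 in set 1 passed 2-fold when any of 28 single cells was left out. On the scale without an added CPM, Ripply2 was 79.1-fold higher (56.8 to 113.6) in set 1 and 264.5-fold higher (172.96 to 427) in set 2.

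Within set 1 the stage ratios differed between cells with and without Y-linked reads. At E7.25, Ripply2 stood at 47.3 CPM (45.97 to 48.6) in the 95 cells with Y-linked reads and 7.03 CPM (6.48 to 7.63) in the 78 without. Dll1 stood at 173.8 and 70.6 CPM, Tbx6 at 43.7 and 25.7 CPM, Msgn1 at 5.74 and 0.492 CPM, and Hes7 at 2.98 and 0.144 CPM. Dll3 was closer, at 396 and 354 CPM, and Lfng stood at 7.72 and 5.08 CPM. All 7 genes were thus higher in the E7.25 cells with Y-linked reads. The cell WT_166 is among these and weighed on 2 of the levels. It held 3430 of their 4836 Ripply2 reads and 6466 of their 17777 Dll1 reads. Ripply2 was read in 57.9% of the cells with Y-linked reads and 25.6% of those without, and Dll1 in 94.7% and 80.8%. The E6.75 cells did not differ in the same way. Dll3 stood there at 114.4 CPM with Y-linked reads and 212.5 CPM without, so that its stage ratio was 1.78 with and 0.73 without, under 2-fold. Tbx6 stood at 21.8 and 9.47 CPM, which made its stage ratio the larger in cells without Y-linked reads, at 1.35 against 0.97. The other ratios were larger with Y-linked reads, from 1.95 (Hes7) to 4.97 (Ripply2), than without, from -0.34 (Msgn1) to 2.92 (Ripply2). At E6.75 the knockout cells differed in the opposite sense for Dll1, which had 1 read in the 49 cells with Y-linked reads and stood at 7.14 CPM in the 36 without. Cells with and without Y-linked reads had median depths of 723997 and 605783 reads in wild type at E6.75, 784270 and 837096 at E7.25, and 980999 and 837726 in knockout. The labels give no sex, embryo or litter for a cell, and these cannot be told apart.

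**Figure D3:**
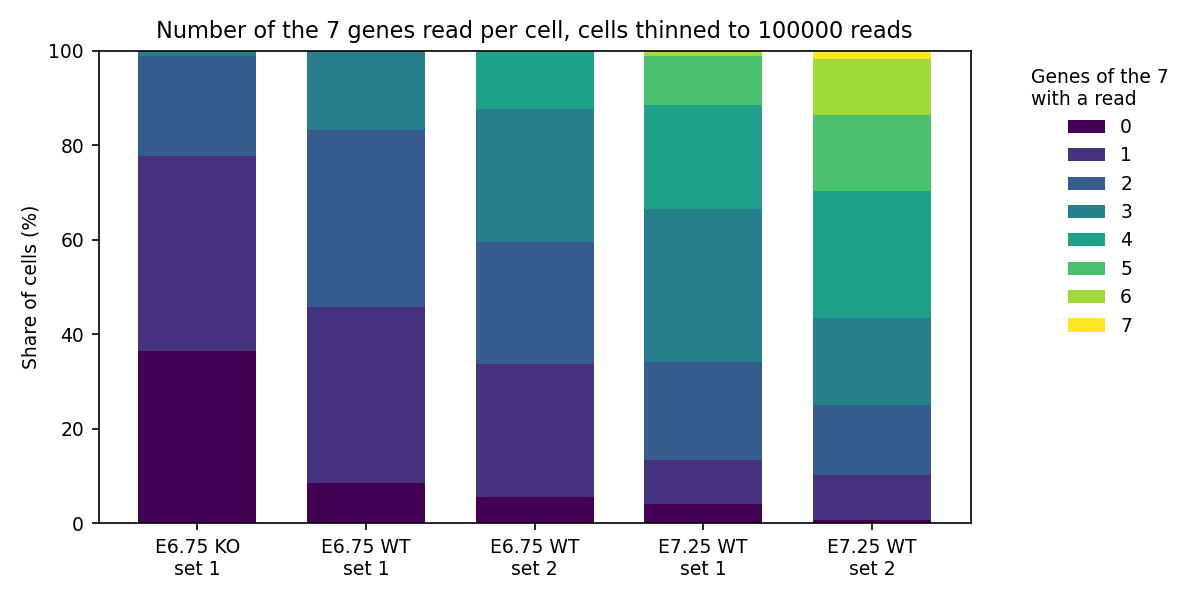
Share of cells by how many of the 7 genes were read in a cell thinned to 100000 reads, for each group and library set. The part with 3 or more genes goes from 1.18% in knockout to 75% in set 2 at E7.25.

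How many of the 7 genes a cell had reads of was counted in thinned cells. In knockout 36.5% of cells had none of them, against 8.43% of wild type cells in set 1 at E6.75. At least 3 of the genes were read in 1.18% of knockout cells (0.0298 to 6.38%), 16.9% of wild type cells of set 1 (9.54 to 26.7%) and 40.4% of set 2 (30.2 to 51.4%) at E6.75. At E7.25 this held for 65.9% (58.3 to 72.9%) and 75% (67.7 to 81.3%). All 7 genes were read together in 3 cells, all of set 2 at E7.25.

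**Figure D4:**
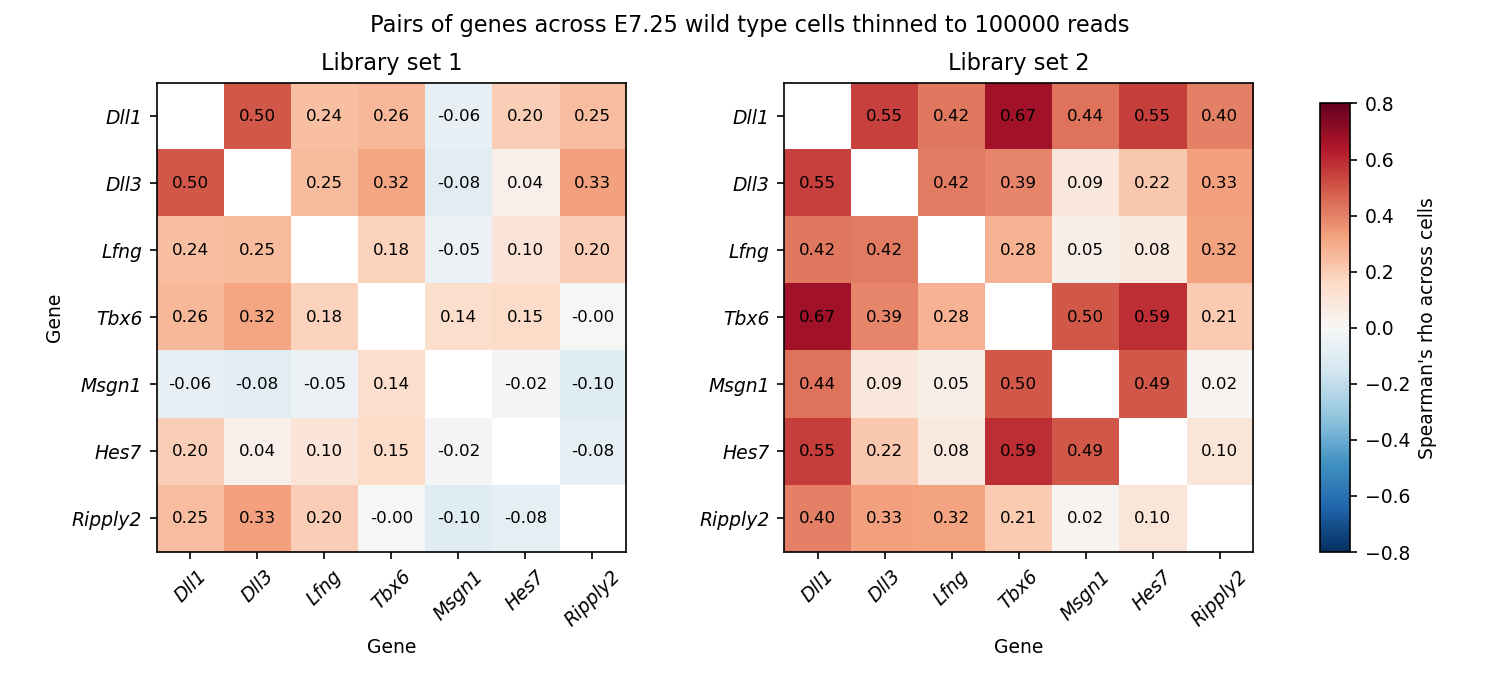
Spearman's rho between pairs of the 7 genes across E7.25 wild type cells thinned to 100000 reads, in set 1 (28.9% of all cells) and set 2 (28.1%). The Dll1 and Dll3 pair is near 0.5 in both sets, while the pairs of Tbx6 with Dll1, Hes7 and Msgn1 are high in set 2 and low in set 1.

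Across the E7.25 cells the ligands varied together. Spearman's rho between Dll1 and Dll3 was 0.50 over the cells of set 1 (28.9% of the 598) and 0.55 over those of set 2 (28.1%). These correlations describe cells of shared libraries, were computed at equal depth and carry no p-value. In set 2, Tbx6 correlated with Dll1 (0.67), Hes7 (0.59) and Msgn1 (0.50), and Msgn1 with Hes7 (0.49). In set 1 the same pairs stood at 0.26, 0.15, 0.14 and -0.02, where Msgn1 and Hes7 were read in 15 and 13 thinned cells. Ripply2 correlated with Dll3 (0.33 in both sets) and Dll1 (0.25 and 0.40) but little in thinned cells with Msgn1 (-0.10 and 0.02) or Hes7 (-0.08 and 0.10). Without thinning it stood at -0.05 and 0.16 with Msgn1 and at -0.10 and 0.34 with Hes7. In thinned cells no pair exceeded 0.38 at E6.75 or in knockout.

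Reads of 2 genes in the same cell were counted in the same thinned cells. In set 2 at E7.25, 29 of 30 cells with Msgn1 also had Tbx6, against 66.7% of the cells without Msgn1, and 20 of the 30 had Hes7, against 14.5%. All 40 cells with Hes7 had Dll1, against 71.1% of the cells without. In set 1 all 13 cells with Hes7 had Dll1, but 1 of 15 cells with Msgn1 had Hes7. Without thinning, 6 of 20 cells with Msgn1 had Hes7 in set 1 and 33 of 51 in set 2. Ripply2 was read in 8 of the 30 Msgn1 cells and 21.01% of the others in set 2, and in 2 of 15 and 26.6% in set 1. Without thinning it was read in 29 of 51 Msgn1 cells and 39 of 60 Hes7 cells of set 2, against 41.7% of all cells. In set 1 this was 8 of 20 and 14 of 34, against 43.4%. Of the 37 Ripply2 cells of set 2 after thinning, 29 had Lfng, against 46.6% of the cells without Ripply2. Without thinning 90% of Ripply2 cells had Lfng, close to the 85.1% of all cells of that set.

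Genes whose pattern over E7.25 cells was most like each of the 7 were ranked by the mean of Spearman's rho over both sets, among 11583 genes. For Tbx6 they were Pou5f1, the pluripotency factor (0.65), Epha1 (0.59) and Lefty1, an inhibitor of Nodal (0.57). For Msgn1 they were the homeobox genes Hoxb1 (0.48), Hoxa2 (0.46) and Gbx2 (0.46), and for Hes7 Apln (0.44), the streak factor T (0.44) and Pik3c2b (0.41). For Dll1 they were the protocadherin Pcdh8 (0.60), Aplnr (0.59) and Lefty1 (0.57), and for Dll3 Pcdh8 (0.57), Dll1 (0.56) and the WNT effector Lef1 (0.55). For Lfng they were Lefty1 (0.53), Lefty2 (0.47) and Fhl3 (0.47). For Ripply2 they were the forkhead genes Foxc2 (0.57) and Foxc1 (0.45) with Dll1 (0.46) between them. With each cell thinned to 100000 reads, 2 or 3 of the 3 genes were the same for Tbx6, Msgn1, Dll1 and Hes7. For Dll3, Lfng and Ripply2 it was 1 of 3, namely Pcdh8, Lefty1 and Foxc2.

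**Figure D5:**
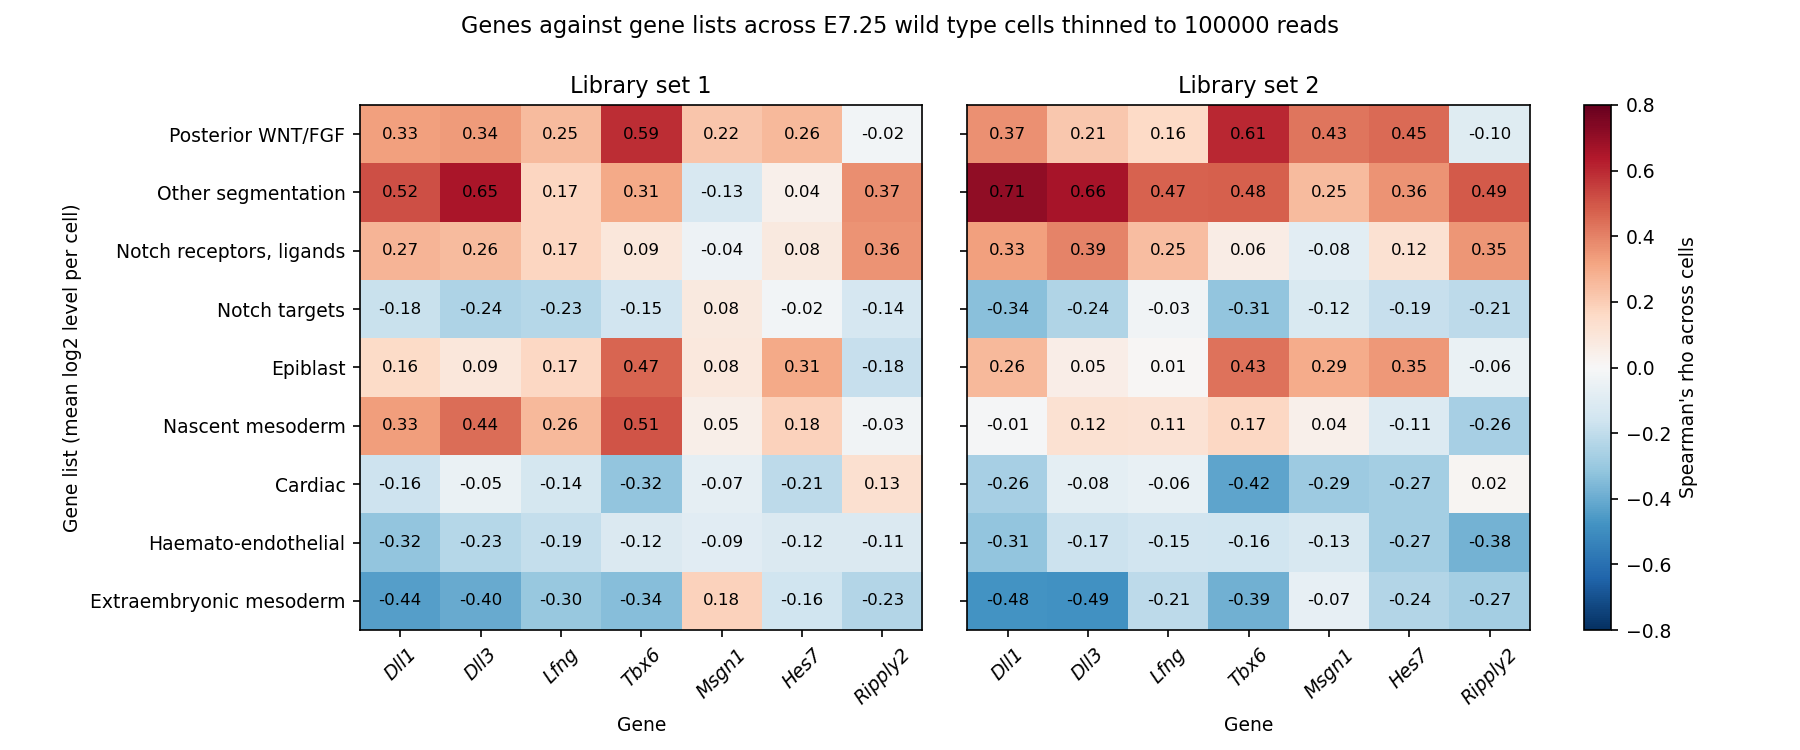
Spearman's rho between each of the 7 genes and the mean log2 level of each gene list across E7.25 wild type cells thinned to 100000 reads, in sets 1 and 2. Tbx6 is highest with posterior WNT and FGF genes, and Dll1, Dll3 and Ripply2 with the other segmentation genes.

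Against gene lists, Tbx6 correlated most with posterior WNT and FGF genes (0.59 in set 1 and 0.61 in set 2) and also with epiblast markers (0.47 and 0.43). Hes7 and Msgn1 stood at 0.26 and 0.22 with the posterior list in set 1 and at 0.45 and 0.43 in set 2, and Ripply2 at -0.02 and -0.10. Dll1 and Dll3 correlated with the other segmentation genes (0.52 and 0.71 for Dll1, 0.65 and 0.66 for Dll3), as did Ripply2 (0.37 and 0.49). Extraembryonic mesoderm markers ran against Dll1 (-0.44 and -0.48) and Dll3 (-0.40 and -0.49). The Notch targets were negative with Dll1 (-0.18 and -0.34) and positive with none of the 7 genes but Msgn1 in set 1 (0.08).

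The receptors and other ligands of the pathway moved less as a list. Of 8 such genes 6 passed the minimum in each comparison. In knockout 1 of the 6 was at least 2-fold lower, the receptor Notch1 at 4.69 CPM against 18.1 (log2 ratio -1.75), while Notch2 (-0.69) and Notch3 (-0.13) were not. At E7.25 in set 2, 2 of 6 were at least 2-fold higher, Notch1 at 89.5 CPM against 21.5 (2.01) and the ligand Jag1 at 79.8 CPM against 30.2 (1.37), and the next, Notch4, was at 0.89. In set 1, 3 of 6 were higher. The list of Notch signal machinery, with Rbpj among its genes, showed 1 of 10 genes higher in knockout (Mfng at 2.02 CPM against 0.359, named after its value was seen). Mfng passed through its knockout level alone, so it could only be higher. In either stage comparison 0 of 9 genes of the list were past 2-fold. Among those with at least 5 CPM, Psen2 was at 0.54 in knockout and Rbpj at -0.66 in the set 2 stage comparison.

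Among the targets of Notch, Hes1 was at least 2-fold lower at E7.25 in both sets. It stood at 69.3 CPM at E7.25 and 142.7 CPM at E6.75 in set 2 (log2 ratio -1.03), and its ratio in set 1 was -1.14. Hey1 was lower at E7.25 in set 1 (-1.34) and by less in set 2 (-0.44), and lower in knockout at 13.5 CPM against 33.2 (-1.23). Of the targets that passed, 1 of 5 was at least 2-fold lower and 0 higher at E7.25 in set 2, and 2 of 4 lower and 0 higher in set 1. In knockout 1 of 4 was lower and 1 of 4, Nrarp, higher at 4.08 CPM against 1.52 (1.01, named after its value was seen).

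Of the other segmentation and presomitic genes, 10 of the 13 that passed were at least 2-fold higher at E7.25 in set 2 and 4 of 11 in set 1, with medians of 1.79 and 0.78. Of all genes that passed, 5.66% and 7.07% were higher. The largest in set 2 were Foxc2 (145.4 CPM against 0.886, 6.28), Pcdh19 (74.2 against 4.14, 3.87) and Pcdh8 (130.1 against 10.9, 3.46). Foxc2 passed there through its E7.25 level alone, so it could only be higher. The E6.75 levels of Ripply1, Meox1, Tcf15 and Aldh1a2, also called in set 2, are not given here, so more of the 10 may have passed this way. In knockout 4 of 11 were at least 2-fold lower, where 7.02% of all genes that passed were, and 0 higher, with a median of -0.80. They included Snai1, the EMT factor (114.5 CPM against 283.5, -1.30), and Epha4 (9.33 against 23.2, -1.23). The others, Foxc1 and Foxc2, were at 0.316 and 0.0176 CPM in knockout. Both passed through their wild type level alone and could only be lower. Mesp2, the neighbour and relative of Mesp1 that acts upstream of Ripply2 in the forming somite, stood at 46.8 CPM in knockout against 86.9 (-0.88).

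Posterior WNT and FGF genes went in both directions. In knockout 3 of 17 were at least 2-fold lower, Fgf3 (6.25 CPM against 158.2, -4.46), Cdx4 (0.0615 against 9.18, -3.26) and Wnt5a (1.98 against 26.8, -3.22), and 1 was higher. Cdx4 passed through its wild type level alone, so it could only be lower. Of all genes that passed, 7.02% were lower and 4.31% higher. At E7.25 in set 2, 5 of 17 were higher, with Hoxb1 at 154.2 CPM against 18.7 (2.97) and Fgf4 at 21.6 against 7.68 (1.38), and 2 were lower, with Fgf8 at 30.05 CPM against 230.4 (-2.90). Of the Tle co-repressors that Ripply2 and Hes7 bind, 4 of 5 were in the table, and 0 of the 3 that passed moved 2-fold in any of the 3 comparisons. Tle3 stood at 18.6 CPM in knockout against 29.1 in wild type and at 78.1 CPM against 79.7 between the stages in set 2.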

How the data were processed

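Single Mesp1-GFP+ cells (598) were sequenced as 1 library each. The authors deposited unnormalized read counts, with GSNAP as the aligner, HTSeq 0.5.3p3 as the counter and mm10 as the build, per the submitters' processing notes. Annotation release, strand setting, parameters and cell filters were not given in the sources used here. Libraries were Nextera XT from plate-sorted cells, per the labels' protocols. Of 40912 identifiers, 40254 matched a symbol in GENCODE (GRCm38). Titles gave each cell's group, 0 columns had no sample and 0 were identical; 0 cells were removed.

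A cell belonged to library set 1 when at least 5 of 8 genes (Dusp15, Foxe1, Hoxd13, Kcnk12, Pou3f3, Six3, Sox3, Vax1) had reads. Cells with Y-linked reads had more than 3 CPM over Eif2s3y, Uty and Kdm5d. Reads were summed per group and set and scaled to CPM; a gene passed at a mean of 1 CPM over the groups compared, and past 2-fold was counted on log2 ratios with 1 CPM added. A gene under 1 CPM in 1 group could pass through the other group alone, and could then be called in 1 direction only. Cells were thinned at random to 100000 reads for shares and pairs. Named genes were the 7 genes, the 3 genes most like each (read in at least 10% of cells of each set) and, per pathway list, up to 3 genes of at least 5 CPM with the largest ratios. The 7 genes and all lists were chosen with earlier results of these data known. edgeR 4.0.16 and DESeq2 1.42.0 gave scaling factors only. Python 3.11.15 and R 4.3.3 were used, and the steps were tested on simulated counts. Alternatives were pooled sets, means per cell, other scalings, 10 CPM added, thinning, a filter of 500000 reads and 4000 genes, the deepest 10% of cells left out, the Y-linked split and, added after the data were seen, each cell left out in turn.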

Additional observations from a re-analysis of the deposited data

Results flagged for a closer look

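The stage ratio of Msgn1 in library set 1 pointed in opposite directions in cells with and without Y-linked reads. With Y-linked reads, E7.25 over E6.75 gave a log2 ratio of 2.19, from 587 reads in 17 of 95 cells against 29 reads in 3 of 53 cells. Without Y-linked reads it was -0.343, from 41 reads in 3 of 78 cells against 30 reads in 1 of 30 cells. The difference was not tested, and the second ratio rests on 4 cells in all.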

How the results depend on the processing

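No paired analysis was possible because the numbers in the titles only name cells and each group is 1 sample with no test. Of the 7 genes, 3 were at least 2-fold lower in knockout, 6 at least 2-fold higher at E7.25 in set 1 and 7 in set 2. Leaving out each cell in turn gave 3 to 3, 6 to 7 and 7 to 7. The first count was 3 or 4 in every alternative and gained Lfng with both sets together or without Y-linked reads. The second was 3 (Dll1, Dll3 and Ripply2) with 10 CPM added, which shrinks ratios of low genes, 4 without Y-linked reads and 6 or 7 otherwise. The third was 5 with 10 CPM added and 7 otherwise. The stage ratio of Msgn1 in set 1 was -0.34 in cells without Y-linked reads; the cause was not tested. Of all alternative ratios of single genes, 52.1% lay outside the counting interval of the reported one and 1 called ratio changed sign. Without a minimum, or with 10 CPM, the share of all genes past 2-fold was 4.15% or 3.28% (lower in knockout), 4.09% or 4.2% (higher at E7.25, set 1) and 3.16% or 3.27% (set 2). With both sets together 8.58% of genes were lower in knockout. The median gene lay within 0.1 of 0 in every scaling except with both sets together in knockout (-0.11). Low read numbers limit Hes7 and Ripply2 at E6.75, and Lfng in knockout (4 reads). In wild type cells of set 1 at E6.75, 3 reads are 0.0317 CPM, and Lfng had 71 reads.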
